A study of Mus musculus with 16 samples.

Results

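Myocardium of wild-type (WT) mice on a high-fat diet (HFD) was compared with myocardium of Clock mutant mice on standard chow, so that a group with the diet and no mutation stood against a group with the mutation and no diet. All 22180 genes with a probe set that names 1 gene were compared, on 4 arrays in each group, 8 of the 16 arrays of the study. The WT HFD mice had received HFD for 24 weeks. The Clock chow mice were homozygous for Clock delta 19, an allele whose protein lacks the part encoded by exon 19 and activates transcription poorly, and had eaten standard chow (SC) for the same 24 weeks. The other 8 arrays came from WT mice on chow and from Clock delta 19/delta 19 mice on HFD, 4 of each. All mice were C57Bl/6J, 32 weeks old and killed 7 h after lights on (ZT07), and RNA came from the myocardium as a whole. The allele is known as a germline mutation and so is not limited to the heart. The sources used here do not give the composition of the HFD or the sex of the mice, and every array is labelled a biological replicate.

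The circadian clock is a loop of transcription. CLOCK and BMAL1 (gene Arntl) bind E-boxes and activate Per, Cry, Nr1d1 and Nr1d2, and the proteins of these genes in turn hold back CLOCK, BMAL1 or the Arntl gene. Rev-erb proteins (Nr1d1, Nr1d2) and ROR proteins compete at RORE sites, and the PAR bZIP factors DBP, TEF and HLF oppose NFIL3 at D-boxes. The heart draws most of its energy from fatty acids, whose breakdown genes are targets of PPARs and of the clock, and these genes rise and fall over the day.

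The deposited values were log values from which each probe set's own median across 16 arrays had been taken away, read here as log2, positive meaning higher. They give differences between arrays, but no expression level and no distance from background, so cell type markers could show shifts but not which cells the tissue held. The centred medians of the 8 arrays lay between -0.000351 and 0.000901. Among the 8, the array least like its own group was Clock chow replicate 4 (mean correlation 0.00508, array weight 0.656). WT chow replicate 4 lay apart from the other 3 WT chow arrays for clock genes. It does not enter the difference between WT HFD and Clock chow except through the shared estimate of spread, but it does enter every value set against WT chow. WT chow replicate 2 likewise lay apart for interferon-induced and antigen presentation genes. How many arrays there were sets the precision of every value.

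Of the 22180 genes, 501 differed between WT HFD and Clock chow at an adjusted p under 0.05 (limma, Benjamini-Hochberg over all genes), which is 2.26% of the genes tested. In WT HFD hearts 231 of them (1.04%) were higher and 270 (1.22%) lower. The clock output genes, the carboxylesterase Ces1d and genes of fatty acid oxidation were among the higher ones, and Arntl, the cell cycle inhibitor Cdkn1a, the magnesium transporter Slc41a3, matrix genes and endothelial genes were among the lower ones. The median size of the 501 differences was 0.376 on the log2 scale, and 25 reached 2-fold, 16 higher and 9 lower. In 478 of the 501 genes the 4 WT HFD arrays did not overlap the 4 Clock chow arrays, against 1594 of all genes (7.19%), 732 of them higher (3.3%) and 862 lower (3.89%). With the 8 compared arrays left out one at a time there were between 328 calls (Clock chow replicate 3 out) and 431 (replicate 4 of that group out), and 235 of the 501 genes kept their call in every such fit. Genes lower in WT HFD numbered 168 when WT HFD replicate 1 was left out, and 166 and 172 when Clock chow replicates 2 and 3 were.

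The mean of 14 endothelial markers was -0.21, -0.18, -0.21 and -0.14 on the WT HFD arrays and 0.02, 0.14, 0.12 and 0.15 on the Clock chow arrays, without overlap. Of the other 13 cell type lists, the mean of the 7 mesothelial markers was also without overlap, at -0.07, -0.07, -0.01 and -0.08 in WT HFD and 0.02, 0.03, 0.04 and 0.10 in Clock chow. The mean of 25 immediate early genes, which are induced quickly by many stimuli, was -0.55, -0.30, 0.05 and -0.67 in WT HFD and -0.09, 0.21, 0.04 and 0.30 in Clock chow, with overlap. With the endothelial and fibroblast means as covariates 2 genes passed, Ano4 and Per3. In that fit 1412 of 22180 genes had an unadjusted p under 0.05, against 2720 (12.3%) without covariates. Standard errors with these covariates were 2.28 times as wide at the median. Of the 501 genes 495 kept their sign, and the differences were 1.07 times their former size at the median. Adding the mean of the immediate early genes instead left 243 genes, 120 higher and 123 lower, and all 501 kept their sign. What part either shift had in the results below was not tested beyond these fits.

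The difference between WT HFD and Clock chow is, by arithmetic, the HFD difference in WT mice minus the mutation difference on chow, both taken against the same WT chow arrays. The 501 calls therefore mark genes at which these 2 differences were unequal. Of them, 45 also passed for HFD in WT mice alone, 72 for the mutation on chow alone, 4 for both in opposite directions, 0 for both in the same direction and 380 for neither. Over all genes 78 (0.352%) passed for HFD in WT mice and 109 (0.491%) for the mutation on chow. Without WT chow replicate 4 these counts were 31 and 108, and the count for WT HFD against Clock chow was 518. Of the 78 genes for HFD in WT mice 25 passed in both fits, of the 109 for the mutation 82, and of the 501 genes 470. Most calls for HFD in WT mice were thus not kept without that array. The other WT chow arrays were not left out in turn, so whether their loss would cost as many calls was not tested. Below, differences of single genes from WT chow without replicate 4 are given only for clock genes. WT chow replicate 4 was picked after its clock gene values were seen, so p-values for clock genes without it describe and do not test. For all other genes, calls against WT chow come from the fit that includes it.

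The 4 genes that passed in both directions at once were Pde11a, Fmo2, Slc41a3 and the predicted gene Gm4956 (0.62 ± 0.06, adjusted p = 3.88e-05), which was named after its values were seen. Pde11a encodes a phosphodiesterase that breaks down cAMP and cGMP. It read 0.54, 0.77, 0.89 and 0.55 in WT HFD, 0.01, 0.09, 0.22 and -0.01 in WT chow, and -0.35, -0.36, -0.54 and -0.68 in Clock chow. The 3 groups formed separate steps, with every WT HFD array above every WT chow array and every WT chow array above every Clock chow array. The step from Clock chow to WT HFD was 1.17 ± 0.10 (SE; 2.25-fold, adjusted p = 5.9e-06), made up of 0.61 for HFD (adjusted p = 0.0156) and -0.56 for the mutation (adjusted p = 0.0147). Slc41a3, a magnesium transporter, ran the other way. Its values were -1.02, -0.83, -1.21 and -1.04 in WT HFD against 0.38, 0.24, 0.62 and 0.78 in Clock chow, a difference of -1.53 ± 0.13 (adjusted p = 5.9e-06), with -0.76 for HFD and 0.77 for the mutation. Fmo2, a flavin monooxygenase, was 1.11 ± 0.09 higher in WT HFD (adjusted p = 5.9e-06), with 0.45 for HFD and -0.65 for the mutation.

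Clock genes differed between the groups at ZT07, with most E-box genes higher and 3 genes of the RORE arm lower in WT HFD hearts. For genes that rise and fall over the day, a changed level and a shifted daily peak cannot be told apart at 1 time of day. Of 13 measured genes activated through E-boxes, 11 were higher in WT HFD hearts and 0 lower, where 1.04% of all genes were higher. The median difference of the 13 was 1.00, against -4e-04 over all genes. Of 6 genes of the RORE arm, Arntl, Clock and Nfil3 were lower, Rora was higher, and Npas2 and Cry1 did not pass.

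Promoter windows of 3 of these genes are shown because they hold the E-box or D-box letters near the start. Each is the 250 bases before 1 annotated start, 5′ to 3′ on the gene's strand, from RefSeq (GRCm38.p6), with the motif in capitals. For Ciart and Per3 that start lies inside the annotated gene, which reaches to 95882257 and 151044707. Their windows therefore overlap the gene, and distances are to the start used. Ciart, whose product represses CLOCK and BMAL1, lies on the minus strand and its window is chr3:95882229-95882478, with CACGTG at 116, 58 and 44 bases before the start.
Ciart: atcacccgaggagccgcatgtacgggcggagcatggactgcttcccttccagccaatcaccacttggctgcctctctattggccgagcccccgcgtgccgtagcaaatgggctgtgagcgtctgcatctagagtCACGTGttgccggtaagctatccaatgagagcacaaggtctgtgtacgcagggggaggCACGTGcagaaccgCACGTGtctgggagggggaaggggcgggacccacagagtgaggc
Bhlhe41, a repressor that competes for E-boxes, has 1 CACGTG at 153 bases before the start, at chr6:145865421-145865670 on the minus strand.
Bhlhe41: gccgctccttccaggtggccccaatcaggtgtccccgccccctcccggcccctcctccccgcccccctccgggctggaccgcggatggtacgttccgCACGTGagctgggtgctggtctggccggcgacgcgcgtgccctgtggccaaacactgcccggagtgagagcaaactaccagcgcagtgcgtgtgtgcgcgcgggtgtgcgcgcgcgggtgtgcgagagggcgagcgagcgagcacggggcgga
Per3, a period gene, has the D-box TTANGTAA at 205 and 158 bases before the start, at chr4:151044666-151044915 on the minus strand.
Per3: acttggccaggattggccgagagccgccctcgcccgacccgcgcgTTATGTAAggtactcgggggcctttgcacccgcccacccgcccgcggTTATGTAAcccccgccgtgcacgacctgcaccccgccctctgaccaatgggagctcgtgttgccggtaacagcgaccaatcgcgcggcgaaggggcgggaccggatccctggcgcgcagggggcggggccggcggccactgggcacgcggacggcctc
Over the window from 250 bases before to 50 after the start, CACGTG (which reads the same on both strands) occurred in 3 of 10 called E-box genes with a window, Ciart, Bhlhe41 and Tef. It occurred in 29 of 177 genes higher in WT HFD (16.4%), in 19 of 196 genes lower (9.69%) and in 9.19% of 16990 genes with a window. TTANGTAA, searched on both strands, occurred in 2.83% of the higher genes, 0.51% of the lower genes and 2.45% of all. These are descriptions of letters in a window and not binding sites.

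Dbp, a PAR bZIP factor and a direct CLOCK target, had the largest difference of all genes. It read 1.86, 2.36, 2.45 and 2.42 in WT HFD and -0.58, -0.39, -0.62 and -0.37 in Clock chow. Every WT HFD array lay above every Clock chow array, by 2.76 ± 0.27 (SE, n = 4 each; 6.78-fold, adjusted p = 3.88e-05). The WT chow arrays read 1.71, 1.89, 2.29 and 0.37 and the Clock HFD arrays between -0.52 and -0.37, so both Clock groups lay at the bottom. Against WT chow, Dbp was 2.05 ± 0.27 lower with the mutation (adjusted p = 0.00154), and for HFD the difference was 0.71 ± 0.27 (adjusted p = 0.323). Without WT chow replicate 4 these values were -2.45 and 0.31 (adjusted p = 0.472).

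The Rev-erb genes were also higher in WT HFD than in Clock chow. Nr1d2 (Rev-erb beta) read 1.10, 1.37, 1.41 and 1.27 in WT HFD against -0.56, -0.48, -0.31 and -0.22 in Clock chow, a difference of 1.68 ± 0.16 (3.21-fold, adjusted p = 2.3e-05). Nr1d1 (Rev-erb alpha) read 0.50, 0.50, 0.49 and 0.50 against -0.57, -0.30, -0.35 and -0.32, a difference of 0.88 ± 0.11 (adjusted p = 0.000292). Neither gene's groups overlapped. Both were lower with the mutation on chow, Nr1d2 by a difference of -1.13 (adjusted p = 0.00225) and Nr1d1 of -1.04 (adjusted p = 0.000145). Neither passed for HFD in WT mice, where the differences were 0.55 and -0.15.

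Among the period, cryptochrome and repressor genes, Per3 read 0.93, 1.22, 1.22 and 1.19 in WT HFD and -0.41, -0.27, -0.18 and -0.35 in Clock chow (1.44 ± 0.15, adjusted p = 5.19e-05). Ciart read 0.67, 1.14, 1.29 and 1.05 against -0.25, -0.30, -0.28 and 0.17 (1.21 ± 0.25, adjusted p = 0.0167), and its adjusted p was over 0.05 without WT HFD replicate 3, Clock chow replicate 2 or Clock chow replicate 3, at most 0.0536. Both genes separated the groups without overlap, although the highest Clock chow value of Ciart stood well above the other 3. Bhlhe41 was higher by 1.00 ± 0.15 (adjusted p = 0.00162) and Cry2, a cryptochrome repressor, by 0.67 ± 0.12 (adjusted p = 0.00754). Per1 (0.24, adjusted p = 0.826), Bhlhe40 (0.10, adjusted p = 0.924) and Cry1 (0.08, adjusted p = 0.782) did not pass. Per2 is not analysed here.

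Among the remaining output genes, Usp2, a deubiquitinase, was higher by 1.01 ± 0.12 (adjusted p = 0.000259) and Wee1, a kinase that holds back mitosis, by 1.20 ± 0.15 (adjusted p = 0.0003). Hlf was higher by 0.52 ± 0.11 (adjusted p = 0.0152), at most 0.0515 without WT HFD replicate 3 or Clock chow replicate 2. Tef was higher by 0.43 ± 0.07 (adjusted p = 0.00273), but its 2 probe sets differed by 0.85 and 0.02. Wee1 was the only E-box gene of the 13 to pass for HFD in WT mice (0.79 ± 0.15, adjusted p = 0.0338), and did not without WT chow replicate 4 (0.72, where adjusted p = 0.114). Dbp, Nr1d1, Nr1d2, Per3 and Usp2 passed as lower for the mutation on chow, 5 of 13 where 0.252% of all genes did. Without WT chow replicate 4, picked after its clock gene values were seen, the mutation differences of Ciart and Bhlhe41 were -1.39 (adjusted p = 0.000254) and -0.72 (adjusted p = 0.0206).

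Arntl, which encodes the CLOCK partner BMAL1, had the largest negative difference of all genes. It read -1.54, -1.94, -2.12 and -1.93 in WT HFD and 0.43, 0.37, 0.18 and 0.12 in Clock chow. All 4 WT HFD arrays lay below all other 12 arrays of the study, and the difference was -2.15 ± 0.26 (4.45-fold, adjusted p = 0.000198). The WT chow arrays were spread over -0.32, -0.66, -1.34 and 0.54. Here the HFD difference in WT mice passed (-1.43 ± 0.26, adjusted p = 0.0245), and the mutation difference on chow (0.72 ± 0.26, adjusted p = 0.309) did not. Without WT chow replicate 4 they were -1.10 (adjusted p = 0.0293) and 1.05 (adjusted p = 0.0149). That array was picked after its clock gene values were seen, so these p-values are given as description.

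The mutated gene itself, Clock, read -0.20, -0.43, -0.54 and -0.43 in WT HFD and 0.12, 0.13, 0.01 and 0.07 in Clock chow (-0.49 ± 0.08, adjusted p = 0.00273), without overlap. On chow the mutants differed from WT by 0.17 ± 0.08 (adjusted p = 0.529). The sources used here do not say whether the probe set covers the altered exon, so the Clock signal checks no genotype label. Nfil3, the D-box repressor, was lower in WT HFD by a difference of -0.75 ± 0.13 (adjusted p = 0.00491). Rora, an activator at RORE sites, was higher by 0.37 ± 0.05 (adjusted p = 0.000571). Npas2, a CLOCK paralog, differed by -0.58 ± 0.16 (adjusted p = 0.0701) with groups that did not overlap. Without WT chow replicate 4, picked after its clock gene values were seen, the difference was the same and the adjusted p 0.0132.

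**Figure D1:**
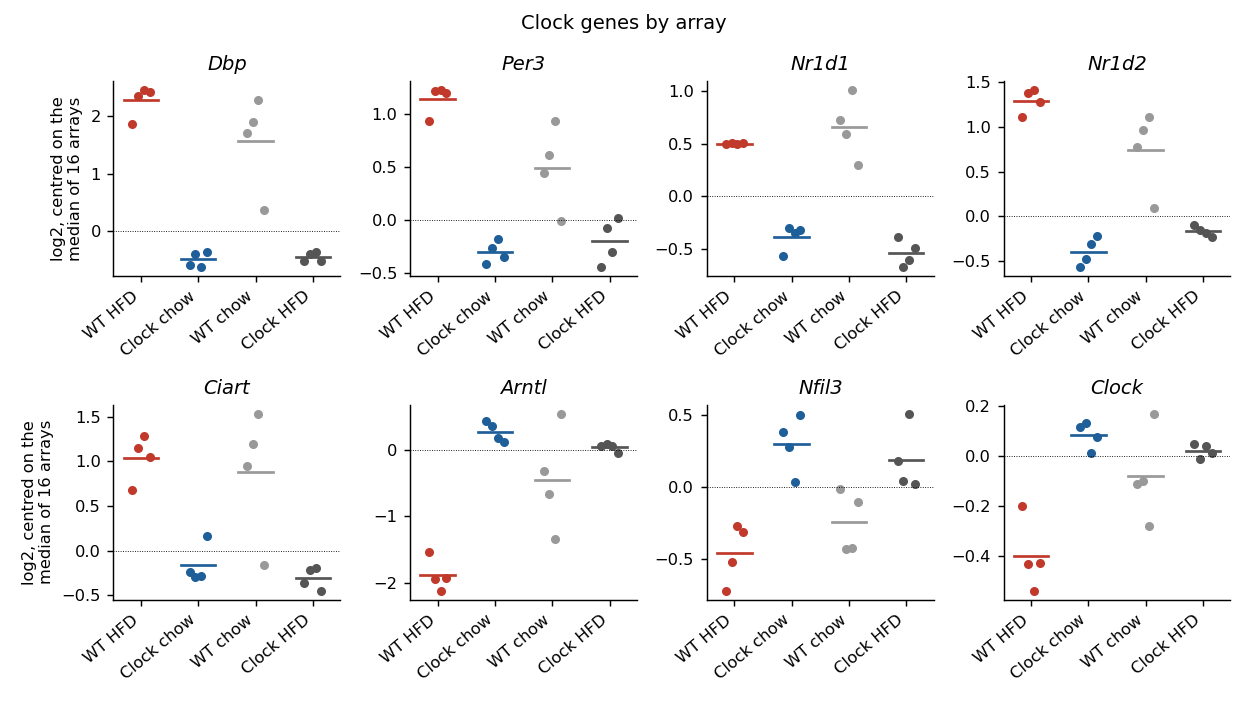
Each point is 1 array, each line a group mean, and the vertical axis is the deposited log2 value centred on the median of 16 arrays, for 8 clock genes in the 4 groups. WT HFD lies above Clock chow without overlap for Dbp, Per3, Nr1d1, Nr1d2 and Ciart and below it for Arntl, Nfil3 and Clock, and the WT chow arrays are the most widely spread for Dbp, Ciart and Arntl.

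Mitochondrial fatty acid oxidation genes were higher in WT HFD than in Clock chow hearts. Of 19 measured, 11 passed as higher and 0 as lower, where 1.04% of all genes were higher, and 18 of the 19 differences were positive. The median was 0.25, against -4e-04 over all genes, so the differences were small beside those of the clock genes. For HFD in WT mice 6 of 19 passed as higher (0.185% of all genes), and for the mutation on chow 2 of 19 passed as lower (0.252% of all genes).

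Entry of fatty acids into mitochondria runs through the carnitine shuttle. Cpt1a, the outer membrane carnitine palmitoyltransferase most abundant in liver, read 0.12, 0.19, 0.02 and 0.41 in WT HFD and -0.39, -0.54, -0.39 and -0.15 in Clock chow, a difference of 0.56 ± 0.11 (1.47-fold, adjusted p = 0.0103). Its groups did not overlap. Against WT chow neither the mutation difference (-0.46, adjusted p = 0.0773) nor the HFD difference (0.09, adjusted p = 0.855) passed. Slc25a20, the carnitine-acylcarnitine carrier, was higher by 0.49 ± 0.07 (adjusted p = 0.00102) and Cpt2, the inner membrane transferase, by 0.28 ± 0.05 (adjusted p = 0.00449). Cpt2 passed for HFD in WT mice (0.31, adjusted p = 0.0153), and its mutation difference was 0.03. Cpt1b, the muscle form, is not analysed here.

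The enzymes of the beta-oxidation spiral were led by Hadha, the alpha subunit of the trifunctional protein. Hadha read 0.21, 0.20, 0.25 and 0.21 in WT HFD and -0.19, -0.23, -0.18 and -0.22 in Clock chow, a difference of 0.42 ± 0.05 (1.34-fold, adjusted p = 0.000108). The WT HFD arrays spanned a narrow range and lay well clear of Clock chow. Acaa2, the thiolase of the last step, was higher by 0.35 ± 0.05 (adjusted p = 0.000669) and Acadvl, the very long chain dehydrogenase, by 0.33 ± 0.06 (adjusted p = 0.00357). Hadha, Acaa2 and Acadvl each passed for HFD in WT mice (0.31, 0.32 and 0.33), and their mutation differences were -0.11, -0.03 and 0.00. Acadl, the long chain dehydrogenase (0.15, adjusted p = 0.034), lost its call without any single one of the 8 compared arrays, with an adjusted p of at most 0.0968. Etfb, an electron carrier subunit (0.25, adjusted p = 0.0313), lost it without any of 7 of them, with at most 0.0929.

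Auxiliary enzymes that deal with unsaturated fatty acids were higher in WT HFD as well. Ech1 read 0.09, 0.21, 0.26 and 0.23 in WT HFD and -0.23, -0.34, -0.21 and -0.18 in Clock chow, without overlap (0.44 ± 0.05, adjusted p = 0.000198). Eci2 was higher by 0.47 ± 0.06 (adjusted p = 0.000259) and Decr1 by 0.43 ± 0.07 (adjusted p = 0.00153). Ech1 and Eci2 were the 2 genes that passed as lower for the mutation on chow (-0.25, adjusted p = 0.0415, and -0.29, adjusted p = 0.03), and their HFD differences of 0.19 and 0.18 did not pass. Acads and Etfdh passed for HFD in WT mice (0.37 and 0.22) but not between WT HFD and Clock chow (0.22 and 0.14). The remaining members that did not pass were Acadm (0.05), Hadhb (0.11), Hadh (0.16), Eci1 (0.24), Etfa (0.08) and Echs1 (-0.08).

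**Figure D2:**
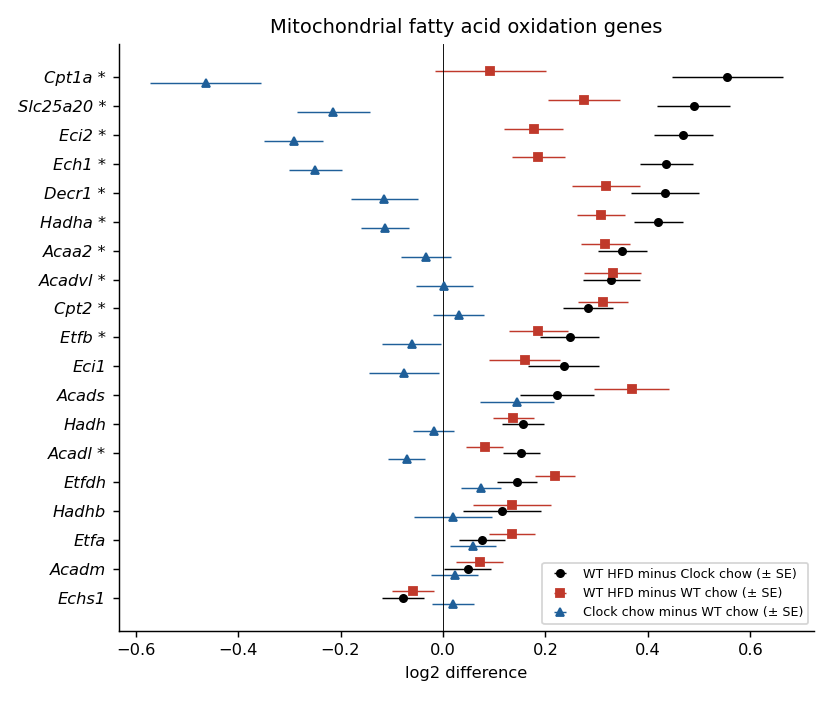
Points are log2 differences and bars 1 SE for 19 mitochondrial fatty acid oxidation genes, as WT HFD minus Clock chow (circles), WT HFD minus WT chow (squares) and Clock chow minus WT chow (triangles), and asterisks mark the 11 genes that passed between WT HFD and Clock chow. The circle is the square minus the triangle. For Cpt1a, Eci2 and Ech1 the triangle lies farther from 0 than the square, and for Acadvl, Cpt2 and Acaa2 the triangle lies near 0.

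Other fuel genes moved in smaller numbers, where 1.04% of all genes were higher and 1.22% lower in WT HFD. Of 18 PPAR targets 4 were higher and 0 lower, Cpt1a, the mitochondrial carrier Ucp3 (0.71 ± 0.14, adjusted p = 0.0124), Pex11a, which acts in peroxisome division (0.33 ± 0.07, adjusted p = 0.0156) and the lipid droplet protein Plin2 (0.27 ± 0.06, adjusted p = 0.029). At an unadjusted p under 0.05 in limma, 10 of the 18 were higher and 0 lower, and 17 differences were positive. Pex11a and Plin2 lost their calls without single arrays, among them WT HFD replicate 1 and Clock chow replicate 3 for both, with adjusted p of at most 0.0549 and 0.0975, and Plin2 did so also without WT HFD replicate 4, Clock chow replicate 1 or Clock chow replicate 4. Pdk4, the kinase that shuts off pyruvate oxidation, differed by 0.31 ± 0.16 and did not pass (adjusted p = 0.473). Of 4 ketone genes, Bdh1, which oxidizes 3-hydroxybutyrate, was higher by 0.86 ± 0.12 (adjusted p = 0.000862), and it was lower with the mutation on chow (-0.98, adjusted p = 0.000733). Acat1, a thiolase, was higher by 0.21 (adjusted p = 0.0299) but lost its call in 6 of the fits that left out 1 array, at most 0.0956.

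Genes of glucose use went the other way in 2 cases of 22. For this list and those that follow, 1.04% of all genes were higher and 1.22% lower. Hk1, a hexokinase, was lower in WT HFD by a difference of -0.49 ± 0.07 (adjusted p = 0.000647) and Pfkp, the platelet type phosphofructokinase, by -0.58 ± 0.10 (adjusted p = 0.0033). The glucose transporter Slc2a4 differed by -0.04 (adjusted p = 0.951). Genes of triglyceride synthesis included Gpam, the acyltransferase of the first step, with 0.39, 0.30, 0.23 and 0.49 in WT HFD and -0.44, -0.45, -0.29 and -0.21 in Clock chow (0.70 ± 0.09, adjusted p = 0.000608), without overlap. Dgat2, which makes triglyceride from diglyceride, was higher by 0.51 ± 0.10 (adjusted p = 0.00948). In that list of 18 genes, 3 were higher and 1 lower. Of 20 cholesterol genes 3 were higher and 2 lower, among them Fdft1, squalene synthase (0.49 ± 0.08, adjusted p = 0.0018), Mylip, which degrades the LDL receptor (0.44 ± 0.07, adjusted p = 0.00276), and the transcription factor Srebf2 (-0.41 ± 0.08, adjusted p = 0.00992). Of 19 genes of branched-chain amino acid breakdown 0 passed in limma and 2 had an unadjusted p under 0.05, with the smallest p at Mmut (0.15 ± 0.05, adjusted p = 0.146). In the respiratory chain and ATP synthase list 0 of 89 were higher and 3 lower (3.4%), against 2.26% of all genes in either direction. At an unadjusted p under 0.05, 14 of the 89 were lower and 0 higher (15.7%), against 12.3% of all genes, and 60 differences were negative. The 3 that passed were Cox6a1, Cox4i2 and Cox7a1, with differences from -0.30 to -0.22. Each lost its call in at least 5 fits without 1 array, with adjusted p of at most 0.13.

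Endothelial markers were lower in WT HFD than in Clock chow hearts. Of 14 measured, 8 passed as lower and 0 as higher, where 1.22% of all genes were lower, and the median was -0.30. Cldn5, the main claudin of endothelial tight junctions, read -0.70, -0.65, -0.93 and -0.86 in WT HFD and -0.03, 0.52, 0.06 and 0.61 in Clock chow. Its groups did not overlap, and the difference was -1.07 ± 0.17 (2.11-fold, adjusted p = 0.00161). For HFD in WT mice Cldn5 differed by -0.81 (adjusted p = 0.0482), and for the mutation by 0.27 (adjusted p = 0.667). In whole myocardium, fewer cells of a type and less RNA per cell cannot be told apart.

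Egfl7, a secreted endothelial factor, read -0.34, -0.33, -0.32 and -0.18 in WT HFD and 0.13, 0.15, 0.17 and 0.09 in Clock chow (-0.43 ± 0.06, adjusted p = 0.000925). Robo4, a guidance receptor of vessels, read -0.32, -0.31, -0.36 and -0.38 against 0.08, 0.11, 0.22 and 0.10 (-0.47 ± 0.09, adjusted p = 0.012). The groups of both genes were well separated. Kdr, the main VEGF receptor, differed by -0.37 ± 0.07 (adjusted p = 0.0106), and with Cldn5, Egfl7 and Robo4 it kept its call whichever array was left out. Tek, Esam, Emcn and Eng (from -0.36 to -0.29) lost theirs in 2 to 8 such fits, with adjusted p of at most 0.154. The count was 4 of 14 without Clock chow replicate 3, 5 without Clock chow replicate 2 or 4 or WT HFD replicate 1, 2 or 4, and 2 with the immediate early gene covariate. Pecam1 (-0.18, adjusted p = 0.11), Cdh5 (-0.23, adjusted p = 0.0727), Flt1 (0.02, adjusted p = 0.978), Vwf (adjusted p = 0.998), Tie1 and Fabp4 did not pass. Of the 14 differences 12 were negative and 2 positive, the highest at 0.19. In each of the other 13 cell type lists, those of cardiomyocytes, fibroblasts, macrophages and adipocytes among them, 0 genes passed in limma, and 19 of their 98 genes had an unadjusted p under 0.05, against 12.3% of all genes. The largest shares were those of smooth muscle and pericyte markers (60%, 2 higher and 4 lower of 10) and fibroblast markers (38.5%, 2 higher and 3 lower of 13).

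Extracellular matrix genes were lower in WT HFD in 8 of 36 cases and higher in 0, where 1.22% of all genes were lower, and the median was -0.16. Thbs1, thrombospondin 1, which activates latent TGF-beta, read -1.06, -0.69, -0.83 and -1.88 in WT HFD and -0.55, -0.04, 0.43 and 0.49 in Clock chow (-1.20 ± 0.27, adjusted p = 0.0296). The groups did not overlap, but both were wide, and the call was lost without Clock chow replicate 2, 3 or 4 or WT HFD replicate 1 or 4 (adjusted p at most 0.0944). Mmp14, a membrane-bound protease that cleaves collagen, read -0.44, -0.41, -0.61 and -0.36 against 0.28, 0.05, -0.04 and 0.13 (-0.56 ± 0.08, adjusted p = 0.000664), and the HFD difference in WT mice was -0.45 (adjusted p = 0.0167). Mmp14 was thus low on all 4 WT HFD arrays and lay between -0.13 and 0.28 on the other 12 arrays.

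Mmp9, Fn1 and Nid1 passed for the mutation on chow as well. Mmp9, a gelatinase, read -0.41, -0.54, -0.31 and -0.62 in WT HFD and 0.13, 0.18, 0.56 and 0.12 in Clock chow (-0.72 ± 0.10, adjusted p = 0.00102), with a mutation difference on chow of 0.60 (adjusted p = 0.0146). Fn1, fibronectin, differed by -0.46 ± 0.08 (adjusted p = 0.00645) with a mutation difference of 0.43 (adjusted p = 0.03), and Nid1, a basement membrane linker, by -0.37 ± 0.07 (adjusted p = 0.0099) with 0.39 (adjusted p = 0.0188). Timp2, a protease inhibitor (-0.36, adjusted p = 0.00951), the growth factor Tgfb1 (-0.28, adjusted p = 0.00398, and -0.30 for HFD in WT mice, adjusted p = 0.0156) and the crosslinking enzyme Loxl1 (-0.39, adjusted p = 0.03, lost in 6 fits without 1 array, at most 0.0964) also passed. The fibrillar collagens Col1a1 (-0.26, adjusted p = 0.25) and Col3a1 (-0.14, adjusted p = 0.712) did not. With the immediate early gene covariate 3 matrix genes passed. The endothelial list mean moved in the same direction as these genes, and its part was not tested beyond the fits above.

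**Figure D3:**
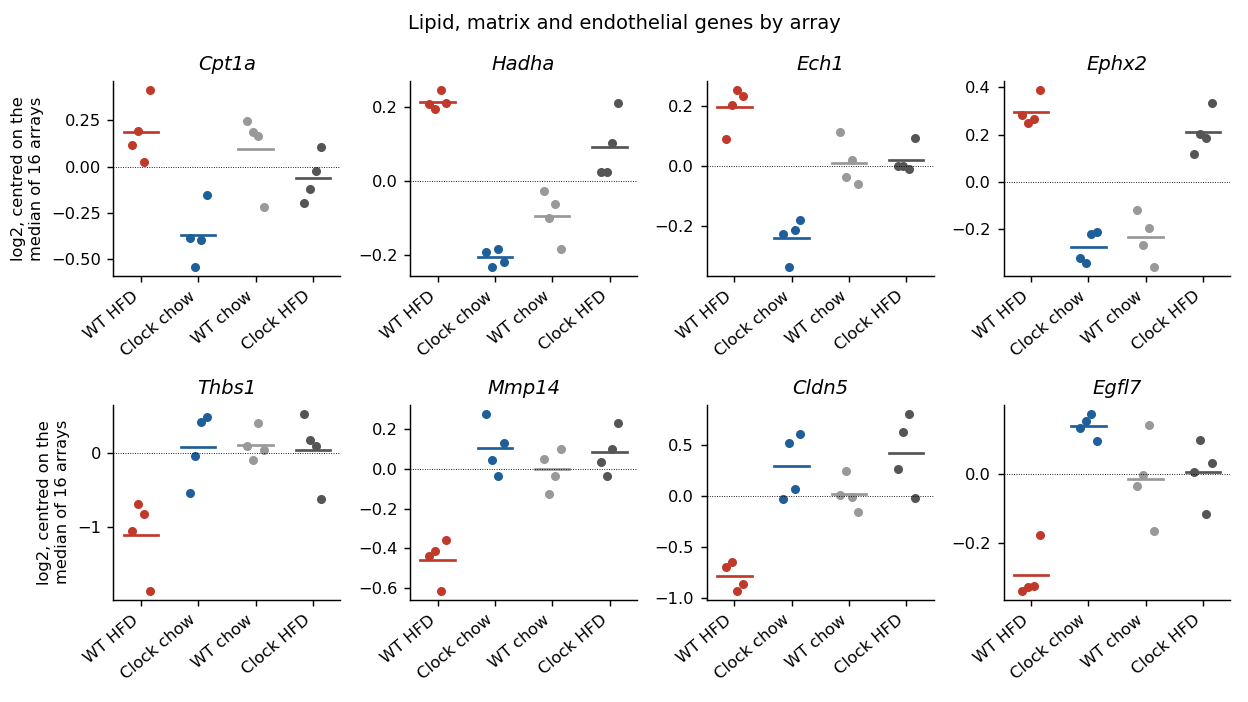
Each point is 1 array, each line a group mean, and the vertical axis is the log2 value centred on the median of 16 arrays, for 4 lipid genes (top) and 4 matrix or endothelial genes (bottom) in the 4 groups. For Ephx2 both HFD groups lie above both chow groups, for Cpt1a and Ech1 Clock chow has the lowest mean, and for Thbs1, Mmp14, Cldn5 and Egfl7 all WT HFD arrays lie below all others.

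Stress and growth genes included some of the largest single differences. Cdkn1a (p21) read -1.20, -1.42, -1.04 and -1.80 in WT HFD and -0.10, 0.31, -0.00 and 1.16 in Clock chow, without overlap (-1.71 ± 0.23, 3.26-fold, adjusted p = 0.000661). It passed for HFD in WT mice (-1.30, adjusted p = 0.0245), and its mutation difference was 0.41 (adjusted p = 0.625). Rcan1, a calcineurin inhibitor, was lower by a difference of -1.32 ± 0.14 (adjusted p = 8.37e-05) and Ankrd23, a stretch-responsive ankyrin repeat protein, by -0.96 ± 0.13 (adjusted p = 0.000664). Both were higher with the mutation on chow (0.70, adjusted p = 0.0397, and 0.71, adjusted p = 0.0207), and they were the 2 of 16 fetal and stretch-responsive genes that passed. Nppa (0.12), Nppb (-0.97, adjusted p = 0.107) and Myh7 (0.46) did not pass. Of 25 immediate early genes 1 was higher and 2 lower, where 1.04% of all genes were higher and 1.22% lower, and the median was -0.45. At an unadjusted p under 0.05, 1 was higher and 14 were lower. Egr2 differed by -0.62 ± 0.09 (adjusted p = 0.00136), and Nr4a1, whose 4 WT HFD values spanned -2.29 to -0.12, by -1.37 ± 0.40 (adjusted p = 0.0983).

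Among channels, Scn4b, a sodium channel beta subunit, read 0.46, 0.47, 0.27 and 0.43 in WT HFD and -0.21, -0.33, -0.26 and -0.47 in Clock chow, without overlap (0.72 ± 0.08, adjusted p = 5.68e-05). The pacemaker channel Hcn2 (-0.51 ± 0.11, adjusted p = 0.019) and the potassium channel Kcnd2 (-0.50 ± 0.10, adjusted p = 0.015) were lower. Hcn2 lost its call without Clock chow replicate 1 or 3 (at most 0.0626) and Kcnd2 without Clock chow replicate 1 (0.0542). The channel and calcium list had 1 gene higher and 3 lower of 28, where 1.04% of all genes were higher and 1.22% lower. Lists with few or no calls were heat shock chaperones (1 higher, 1 lower of 20), ATF4 and endoplasmic reticulum stress (0 and 1 of 20), antioxidant genes (1 and 1 of 22), glucocorticoid and FOXO targets (2 and 1 of 16), insulin signalling (1 and 0 of 19) and inflammation (1 and 1 of 21). At an unadjusted p under 0.05 these lists had 12 (60%), 6 (30%), 5 (22.7%), 11 (68.8%), 5 (26.3%) and 11 genes (52.4%), against 12.3% of all genes. Of the 12 heat shock genes 10 were lower in WT HFD, and of the 11 inflammation genes 8 were. Interferon-induced genes, antigen presentation, proliferation and autophagy had 0 of 16, 8, 16 and 17 in limma, with 0, 1, 1 and 2 at an unadjusted p under 0.05. Their members with the smallest p were Usp18, B2m, Mcm6 and Map1lc3b, with adjusted p of 0.447, 0.349, 0.394 and 0.0762. WT chow replicate 2 had a mean of 1.04 for interferon-induced and 0.82 for antigen presentation genes. The other WT chow arrays lay at -0.08 to 0.04 and -0.11 to 0.11. B2m had an SD of 0.47 in WT chow, against 0.07 in WT HFD and 0.19 in Clock chow, whose groups did not overlap. As WT chow enters the shared spread, 0 calls in these lists do not show equal expression.

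**Figure D4:**
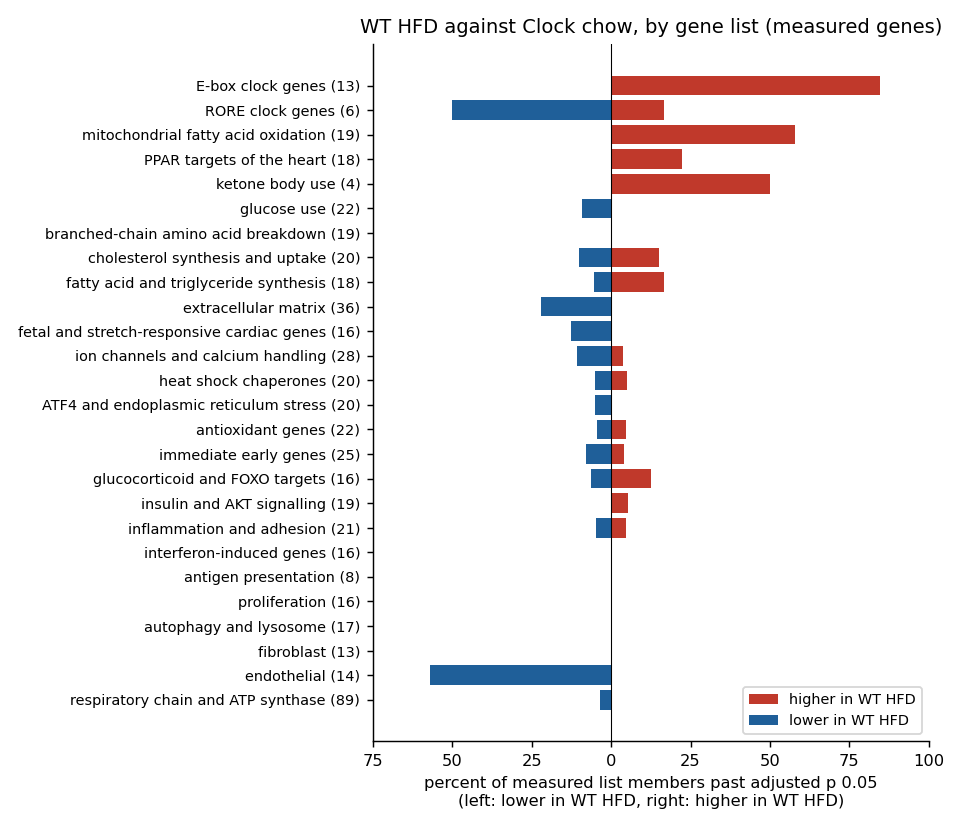
Bars give the percentage of each list's measured genes (number in brackets) that passed at an adjusted p under 0.05 as higher (right) or lower (left) in WT HFD than in Clock chow. The longest bars are those of the E-box clock genes and fatty acid oxidation on the right and of endothelial markers and the RORE arm on the left, beside 1.04% higher and 1.22% lower over all genes.

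The comparison of Clock HFD with WT chow shares no array with that of WT HFD with Clock chow, though both came from 1 fit with 1 estimate of spread. A gene that follows the diet has the same sign in both, and a gene that follows the genotype has opposite signs. Clock HFD differed from WT chow at 891 genes (4.02%), 564 of them higher (2.54%) and 327 lower (1.47%), or at 532 without WT chow replicate 4. Between the comparisons 22 genes (0.0992%) passed with the same sign and 96 (0.433%) with opposite signs, together 23.6% of the 501 calls and 13.2% of the 891. Without WT chow replicate 4 the counts were 21 and 87. In limma's test of the interaction of diet and genotype 0 genes passed, and the smallest adjusted p among the named genes was 0.76. At an unadjusted p under 0.05 were 1122 genes (5.06%), near the share that chance gives.

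Among the 96 genes with opposite signs, 52 were higher in WT HFD and lower in Clock HFD, and 44 the reverse. Ano4, an anoctamin, had the smallest adjusted p of the whole comparison. It read 0.72, 0.57, 0.57 and 0.74 in WT HFD and -0.61, -0.62, -0.61 and -0.59 in Clock chow (1.25 ± 0.06, adjusted p = 2.47e-08), and -1.17 in Clock HFD minus WT chow (adjusted p = 5.42e-08). Its HFD difference in WT mice was 0.06 ± 0.06, so the 4 groups formed 2 levels by genotype. Plac9a read -0.39, -0.47, -0.74 and -0.45 in WT HFD and 0.80, 0.63, 0.64 and 0.86 in Clock chow (-1.25 ± 0.08, adjusted p = 5.95e-07), and 0.92 in the second comparison. The groups were again split by genotype, but a near-identical copy, Plac9b, may share its signal.

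Ces1d, a carboxylesterase that hydrolyses triglyceride and other esters, read 1.90, 1.93, 2.24 and 1.98 in WT HFD and -0.36, -0.45, -0.44 and -0.47 in Clock chow (2.44 ± 0.19, 5.43-fold, adjusted p = 2.67e-06). Its value in Clock HFD minus WT chow was -1.73, and the mutation difference on chow was -1.63 (adjusted p = 0.000383). Carboxylesterase genes are a family of close copies, and the sources used here do not say how probes divide between them. Ptgds, prostaglandin D synthase, read 0.99, 0.48, 0.33 and 1.09 against -0.45, -0.93, -0.74 and -1.62 (1.66 ± 0.22, adjusted p = 0.000661), with -1.53 in the second comparison. Neither gene's groups overlapped. Of the E-box list, Dbp, Nr1d1, Nr1d2, Per3, Ciart and Usp2 passed in both with opposite signs and 0 with the same sign.

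Of the 22 genes with the same sign, 13 were higher and 9 lower in both HFD groups. Ephx2, the epoxide hydrolase that inactivates epoxides of fatty acids, read 0.28, 0.25, 0.26 and 0.39 in WT HFD and -0.32, -0.34, -0.22 and -0.21 in Clock chow (0.57 ± 0.06, adjusted p = 5.19e-05), and 0.44 in the second comparison (adjusted p = 0.000711). Its mutation difference on chow was -0.04. Scgb1c1, a secretoglobin, read -0.40, -0.06, -0.60 and -0.32 against 0.10, 0.82, 1.08 and 0.06 (-0.86 ± 0.19, adjusted p = 0.0226), and -0.99 in the second comparison. Both genes separated the diets in both comparisons, and Scgb1c1 lost its call in 5 fits without 1 array, at most 0.0781. Scn4b (0.72 and 0.36), Vwa8, a mitochondrial ATPase (0.59 and 0.34), Slc7a1, the cationic amino acid transporter (-0.63 and -0.52), Cpt2, Acadvl, Hadha and Acaa2 were also in this class. In the fatty acid oxidation list 4 genes passed in both with the same sign and 0 with opposite signs.

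**Figure D5:**
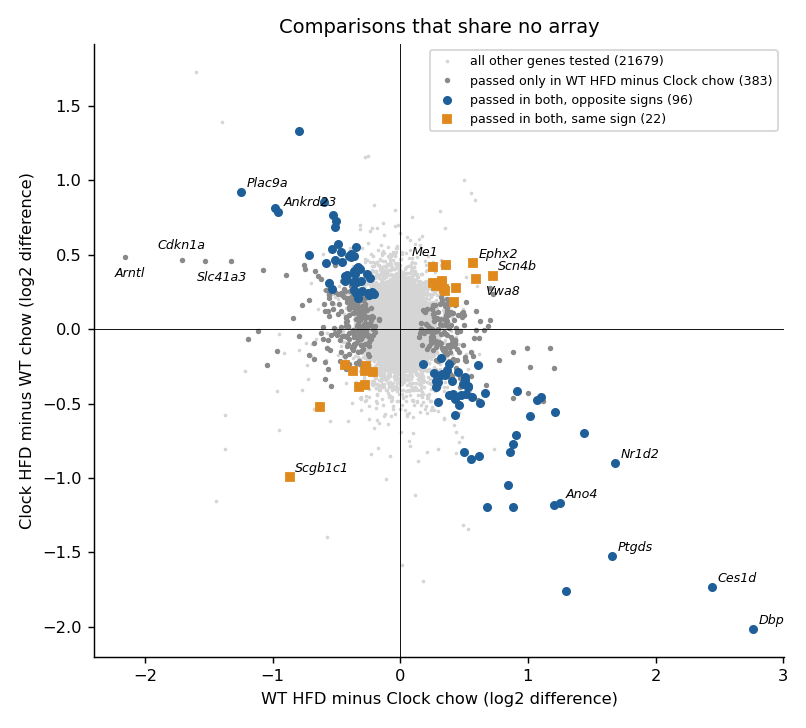
Each point is 1 gene, with the log2 difference WT HFD minus Clock chow on the horizontal axis and Clock HFD minus WT chow on the vertical axis, which share no array. The 96 genes that passed in both with opposite signs fill the upper left and lower right, with Dbp and Ces1d farthest out, and the 22 with the same sign lie in the other corners.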

How the data were processed

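Arrays were Affymetrix, made from 500 ng of total RNA extracted from whole myocardium with Trizol, per the labels' protocols. The deposited table held log2 values (the sources used here do not give the base, sign, software or normalization) for 34351 probe sets, centred on each probe set's median over 16 arrays. Of these, 23521 had 1 gene symbol, 1814 several and 9016 none, from the platform annotation. Symbols were averaged to 22180 genes, 1082 of them with over 1 probe set.

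Groups came from the labels. The model in limma 3.58.1 (R 4.3.3) had 4 group means over all 16 arrays, with 12 residual and 4.16 prior degrees of freedom. Tests were two-sided, with Benjamini-Hochberg adjustment over 22180 genes and a threshold of 0.05. A fold is 2 to the power of the difference. Centred values allow no filter on dim genes, so a filter on the SD over arrays was an alternative, as were probe set summaries, array weights, repeated quantile normalization, trended and robust variance, only the 8 arrays, covariates, a replicate block and each compared array left out. Leaving out WT chow replicate 4 was chosen after seeing the data.

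The comparison and the gene lists were chosen with earlier results of these data known, so the lists were counted and not tested. Of 675 list entries 621 were matched, some through RefSeq synonyms. Genes were named by rule: all measured clock list members, the 12 largest non-overlapping differences of known genes in each direction, up to 4 called members of each pathway list (or that with the smallest p), up to 3 of each cell type list, and 6 of each class passing in both comparisons that share no array. Other list members and gene families were named after their values were seen. Gene symbols are those of the platform annotation and can be old.

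The model was tested on simulated data for WT HFD minus Clock chow over 22180 genes in 5 sets, each with 200 changed genes. It recovered 32.7% of differences of 0.25, 90.4% of 0.5 and 99.5% of 1 on the log2 scale, and 4.11% to 5.69% of calls were false. Genes were drawn independently, without shifts shared by many genes, so the share of false calls need not hold for the real arrays.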

Additional observations from a re-analysis of the deposited data

Results flagged for a closer look

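In the 88 named genes, 176 groups of 4 arrays were examined for 1 array far from the other 3, by the gap to the nearest array over the range of the group. In 7 groups (3.98%) the ratio was above Dixon's critical value, where chance gives about 1 in 20. Dbp was 1.865 in WT HFD replicate 1, with the others at 2.356 to 2.454. Per3 was 0.926 in the same array, with the others at 1.195 to 1.223. Ciart was 0.165 in Clock chow replicate 4, with the others at -0.297 to -0.246. Mmp9 was 0.558 in Clock chow replicate 3, with the others at 0.116 to 0.177. Egfl7 was -0.176 in WT HFD replicate 4, with the others at -0.336 to -0.322. Lpin1, which makes diglyceride from phosphatidate, was -0.059 in WT HFD replicate 2, with the others at -0.207 to -0.193. Map1lc3b, an autophagosome protein, was 0.032 in WT HFD replicate 4, with the others at -0.162 to -0.136. In all of these genes but Map1lc3b the array that stood apart did not close the gap between WT HFD and Clock chow.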

How the results depend on the processing

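Each of the 79 named genes that passed kept its sign in every setting run. Of them 54 kept their call whichever of 9 arrays was left out, and 2, Ano4 and Per3, did so in every setting. Summarising by probe set, repeated normalization, array weights, a filter on SD and trended variance left all counts within 1.5 times. A fit on only the 8 compared arrays gave 323 genes, 168 of them lower. With the immediate early gene covariate there were 243 genes, 120 higher and 123 lower, 60 with opposite signs in both comparisons, and 3 matrix and 2 endothelial genes. With the endothelial and fibroblast covariates, of which the endothelial mean separates the groups, there were 2 genes, both higher, 0 lower, 0 with the same sign, 1 with opposite signs, 1 E-box gene and 0 of fatty acid oxidation, matrix and endothelial genes. Endothelial genes were there adjusted for a mean that they make up themselves, so their count of 0 carries no information.

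With 1 array left out, genes past the threshold ranged from 328 to 518, higher genes from 154 to 244, lower genes from 166 to 274, genes with the same sign from 17 to 22 and with opposite signs from 69 to 111. E-box genes ranged from 9 to 11, fatty acid oxidation genes from 9 to 12, matrix genes from 6 to 9 and endothelial genes from 4 to 7.

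A replicate block gave 450 genes, 405 of them among the 501, and changed no count by over 1.5 times. Deviations of same-numbered arrays in WT HFD and Clock chow correlated at 0.0802, 0.0987, -0.036 and -0.104, so the numbers were not taken as pairs. The self-test shows that differences near 0.25 were often missed at 4 arrays a group.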

Other observations

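Gene families, some with members that are also in the lists above, were chosen after their values were seen and are given as counts without a test. Over all genes 1.04% were higher and 1.22% lower in WT HFD than in Clock chow. Of 33 peroxisomal genes, which took in the Pex genes and catalase beside lipid enzymes, 6 were higher in WT HFD than in Clock chow and 0 lower, with a median of 0.07. They were Ephx2 (0.57), Eci2 (0.47), Ech1 (0.44), Abcd3, a transporter of fatty acids into peroxisomes (0.40 ± 0.06, adjusted p = 0.000696), Hsd17b4, the bifunctional enzyme of peroxisomal oxidation (0.34 ± 0.06, adjusted p = 0.0033), and Pex11a (0.33). Eci2 and Ech1 were also counted above among the fatty acid oxidation genes, and Pex11a among the PPAR targets. In Clock HFD against WT chow 4 of the 33 were higher, where 2.54% of all genes were, and 0 lower. Pex11a lost its call without WT HFD replicate 1 or Clock chow replicate 3, with an adjusted p of at most 0.0549.

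Of 33 chemokines 1 was higher and 3 lower. Cxcl13, which draws B cells, differed by 0.89 (adjusted p = 0.0384), with 1.47, 0.19, 0.31 and 0.11 in WT HFD and -0.59, -0.44, -0.23 and -0.22 in Clock chow. Without WT HFD replicate 1, which stood far above the other 3, the difference was 0.57, and leaving out WT HFD replicate 3 or any single Clock chow array ended the call (adjusted p at most 0.11). Ccl7, Ccl3 and Ccl11, which draw monocytes or eosinophils, differed by -1.12, -0.79 and -0.59 (adjusted p = 0.015, 0.041 and 0.0442). Ccl7 lost its call without WT HFD replicate 4 or Clock chow replicate 3 (at most 0.0535), and Ccl3 and Ccl11 each did in 7 of the 9 fits without 1 array (at most 0.106 and 0.136). Macrophage, T cell and B cell marker lists held 0 genes that passed. Among 22 phosphodiesterases Pde7b (0.53, adjusted p = 0.00252) was higher with Pde11a, and Pde2a (-0.38, adjusted p = 0.0326) was lower but lost its call in 5 fits without 1 array, at most 0.108.

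The cytoplasmic actins Actb (-0.58 ± 0.10, adjusted p = 0.00574) and Actg1 (-0.44 ± 0.08, adjusted p = 0.00643), often used as reference genes, were lower in WT HFD, as were the tubulins Tubb4a (-0.42, adjusted p = 0.00102) and Tubb6 (-0.49, adjusted p = 0.0233), 2 of 6 actins and 2 of 12 tubulins. Tubb6 lost its call in 5 fits without 1 array, at most 0.0807. Rgs6 and Rgs7, regulators of G protein signalling, were each higher by 0.43 (adjusted p = 0.0012 and 0.00667), 2 of 21 such genes. Of 39 proteasome subunits 0 passed in limma and 2 had an unadjusted p under 0.05, and of 71 mitochondrial ribosomal proteins 1 did, as lower.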
